A study of Danio rerio with 6 samples.

Results

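The genes described here encode the enzymes of glycolysis, the glucose transporter slc2a1 and the core enzymes and targeting proteins of glycogen metabolism in the zebrafish, a fixed list of 39 genes matched by name among the 32059 rows of the count table. They were read in cells sorted as thyroid follicular cells, the cells that make thyroglobulin and thyroid hormone, from zebrafish at 5 months after fertilization. The sample titles give both groups this name (TFC). For pax2a-low it rests on the title and the sort, and markers of other cell types are given below. Every fish carried Tg(tg:nls-EGFP), which places nuclear EGFP under the thyroglobulin promoter, together with a knock-in that puts mKO2 at the pax2a locus. Both sorted populations, pax2a-high (bright mKO2, 3 libraries) and pax2a-low (dim mKO2, 3 libraries), therefore share the same reporters and differ by the mKO2 gate. The labels do not say whether replicates came from separate fish or pools, and the spread that p-values rest on may therefore be technical.

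Glycolysis splits glucose into pyruvate in the cytosol and yields ATP and NADH, and lactate dehydrogenase regenerates the NAD that keeps it running. Each step is catalysed by a family of isozymes, and the teleost genome duplication left zebrafish with an a and a b copy of many of them. Glycogen is a branched store of glucose that glycogen synthase builds and glycogen phosphorylase breaks down, while targeting subunits of protein phosphatase 1 bring the phosphatase to glycogen, where it favours synthesis. Thyroid cells draw on glucose for ATP and, through the pentose phosphate pathway, for the NADPH that the peroxide-generating oxidases of hormone synthesis use.

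The pax2a-high libraries held 18014891 to 35403210 counts each and the pax2a-low libraries 6053741 to 10932845. The limit that a count of 0 allows, set at 3 counts, came to 0.085 to 0.186 CPM for pax2a-high and 0.237 to 0.586 CPM for pax2a-low. It covers counting error only, and a gene could vary far more between libraries, as ldha did with 110, 382 and 0 counts in pax2a-low. CPM are counts per 1000000 of the TMM-scaled library size, a scaling meant to reduce the effect of differences in RNA composition. Levels are compared between groups only, since no transcript lengths were used. Summed thyroid follicular markers (7 genes, among them tg, tshr, slc5a5 and pax8) were at 160327 to 243546 CPM in the pax2a-high libraries, against 3644 to 33173 CPM in the pax2a-low ones, and all 7 were higher in every pax2a-high library than in any pax2a-low one. Nearly all of this sum was tg, at 159450 to 242081 CPM in the pax2a-high libraries. Summed ionocyte markers (9 genes) were at 0.495 to 26.6 CPM against 3091 to 5487 CPM, with ca15a at 0 counts in all pax2a-high libraries. Likewise, foxi3a, rhcgb and slc4a1b had 0 counts there, but they also had 0 in pax2a-low replicate 3. The marker atp6v1aa overlapped, at 0.247, 14.7 and 20.4 CPM in the pax2a-high libraries, against 0, 29.2 and 26.8 CPM in the pax2a-low ones. Summed macrophage and dendritic markers (8 genes) were at 19.4 to 158 CPM against 584 to 1512 CPM. Most of the pax2a-low sum came from cd74a, cd74b and mpeg1.2 (means of 577, 303 and 97.4 CPM), each lower in every pax2a-high library than in any pax2a-low one. The marker lcp1 went the other way, at 0.495, 1.23 and 1.73 CPM in pax2a-high replicates 1, 2 and 3 against 0 CPM in pax2a-low. The groups overlapped for mpeg1.1, csf1ra, marco and spi1b. Summed epidermal markers (5 genes) overlapped, at 1127, 909 and 149 CPM in the pax2a-high libraries, against 569, 2479 and 544 CPM in the pax2a-low ones. Among them, krt5 differed widely within pax2a-high, at 795, 586 and 2.79 CPM in replicates 1, 2 and 3. Mitochondrial rows took 0.799 to 1.17% of counts in the pax2a-high libraries, against 24.1 to 49.0% in the pax2a-low ones. The highest share was that of pax2a-low replicate 1, against 24.1 and 25.9% in replicates 2 and 3. That library also had the fewest counts (6053741) and the fewest genes detected (8392) of all libraries. Apart from the epidermal sum, these marker sums and shares separate the same libraries as every result that follows, and the part of any of them in the results was not tested. In sorted bulk cells, fewer cells of a type and less RNA per cell cannot be told apart. The pax2a-low replicate 3 stood apart from the other pax2a-low libraries in pax2a itself (2014 counts, against 12 and 10 in replicates 1 and 2). Its tg level was also the highest of the group (32823 CPM, against 5364 and 3599), as were its levels of tshr, pax8, nkx2.4b and duox. Those of slc5a5 and hhex were not. Each called gene is given without this library below.

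The muscle-type aldolase aldoab and the glycogen-targeting gene ppp1r3cb rose in pax2a-high cells, at 117 ± 24.1 CPM against 1.18 ± 1.27 CPM and at 53.6 ± 18.1 CPM against 0 counts, and the platelet-type phosphofructokinase pfkpa fell, at 19.9 ± 20.7 CPM against 228 ± 114 CPM in pax2a-low cells (mean ± SD, n = 3 each). Of the 39 genes, 36 had at least 1 count and 28 passed the filter on low counts, which asks for about 10 counts in a library of typical depth in at least 3 libraries. By edgeR's quasi-likelihood test with Benjamini-Hochberg adjustment over all 12524 genes tested, 2 of the 28 rose in pax2a-high cells (aldoab and ppp1r3cb), where 1.12% of all genes tested did, and 1 fell (pfkpa), where 1.46% did. Groups did not overlap for 6 genes higher in pax2a-high, 21.4% of the 28, and the same held for 21.4% of all genes tested. They did not overlap for 4 genes lower in pax2a-high, or 14.3% of the 28, against 8.11% of all genes tested. At an unadjusted p under 0.05, 3 of the 28 were higher and 4 lower, where 9.76% and 4.6% of all genes tested were. Positive log2 fold changes numbered 16 of 28, or 57.1%, as they did for 57.1% of all genes tested. The median log2 fold change, pax2a-high over pax2a-low, was 0.32 over the 28 genes and 0.35 over all genes tested. In its median and its share of positive values the list thus lay at the background in this fit. A gene could pass the filter through a single group, as ppp1r3cb and slc2a1a did with 0 counts in all pax2a-low libraries. Both are among the 6 genes higher without overlap. The counts above therefore describe the genes that passed and not all 39.

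**Figure D1:**
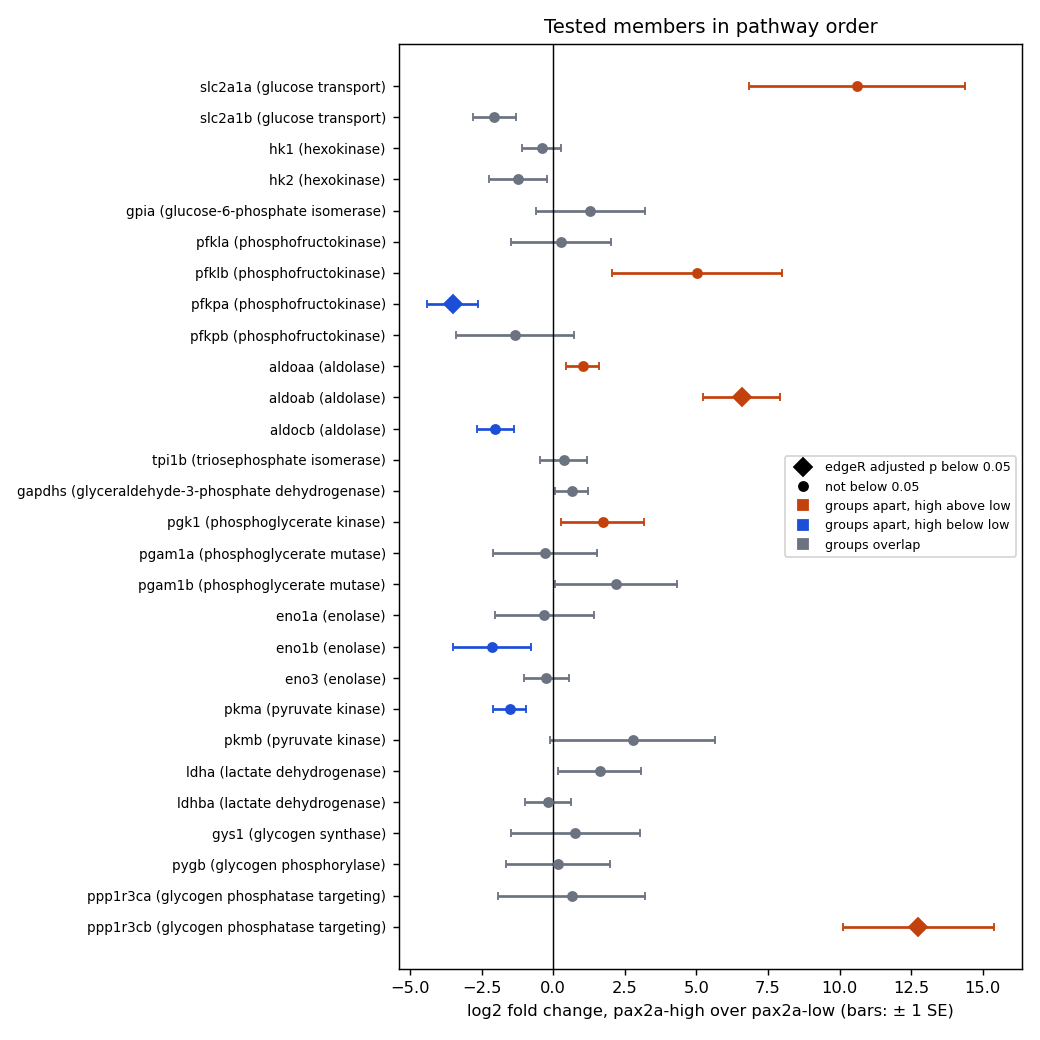
Log2 fold change (pax2a-high over pax2a-low, bars ± 1 SE) of the 28 tested genes in pathway order. Diamonds mark the 3 genes past the edgeR threshold, aldoab and ppp1r3cb to the right and pfkpa to the left of 0. Colour marks whether the libraries of both groups overlap. The positions of slc2a1a and ppp1r3cb, both at 0 counts in pax2a-low, depend on the prior count of the fit.

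Together the 39 genes took 0.129 to 0.156% of counts in the pax2a-high libraries, against 0.168 to 0.190% in the pax2a-low ones. Their summed level was 1525 ± 193 CPM in the pax2a-high libraries, against 1773 ± 192 CPM in pax2a-low cells (mean ± SD, n = 3 each), and the libraries overlapped. Thyroglobulin took 15.3 to 24.0% of counts in the pax2a-high libraries, against 0.398 to 3.80% in the pax2a-low ones. Counted outside tg and the mitochondrial rows, the 39 genes made up 0.173 to 0.187% of the remaining counts in the pax2a-high libraries, against 0.252 to 0.332% in the pax2a-low ones, without overlap. Which genes supplied these reads differed by step. Summed over its members, phosphofructokinase was at 67.0 ± 8.95 CPM in the pax2a-high libraries, against 271 ± 153 CPM in pax2a-low cells, and pyruvate kinase at 77.2 ± 8.40 and 210 ± 70.4 CPM (SD, n = 3 each), both without overlap. Most of each pax2a-low sum came from a single gene, pfkpa (mean of 228 CPM) and pkma (mean of 209 CPM). Aldolase summed to 378 ± 25.8 CPM in the pax2a-high libraries, against 281 ± 87.4 CPM in pax2a-low cells, and the libraries overlapped.

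**Figure D2:**
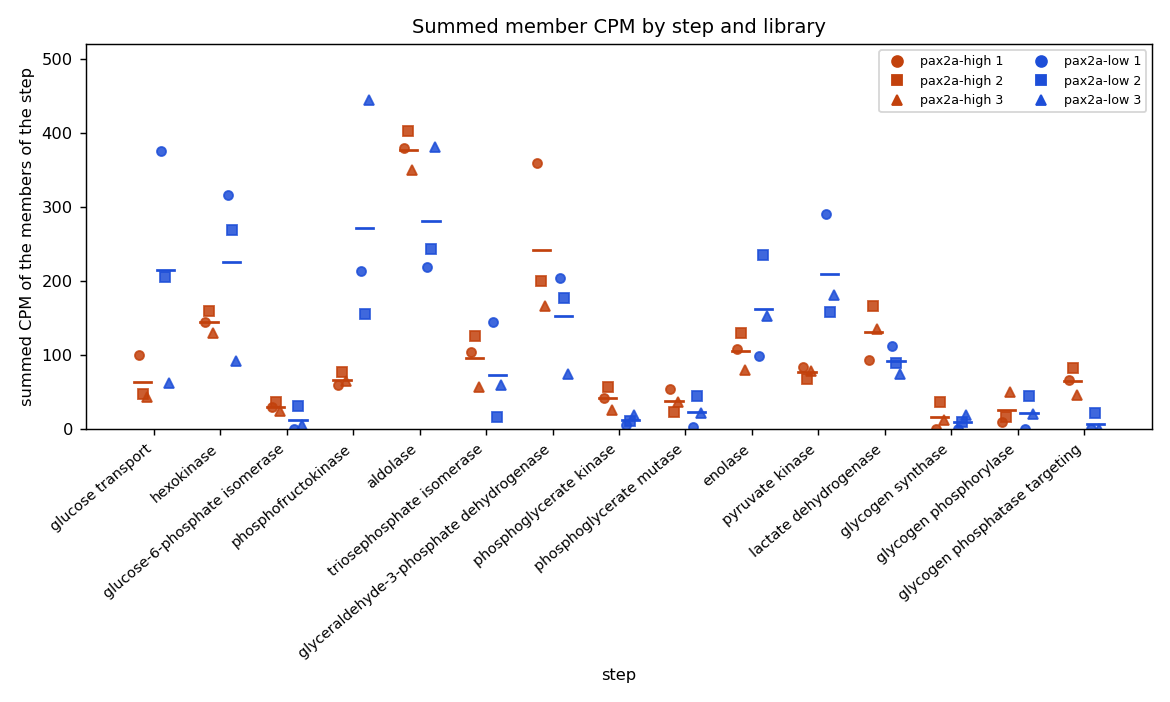
Summed CPM of the listed genes of each step in every library, with bars at the group means. Phosphofructokinase and pyruvate kinase are lower in all pax2a-high libraries, phosphoglycerate kinase and the glycogen phosphatase targeting genes are higher in all of them, and the groups overlap in the other steps.

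Glucose enters most cells through facilitative transporters of the SLC2 family, of which slc2a1 (GLUT1) is the widely expressed basal form. The a copy, slc2a1a, was at 2.35, 17.6 and 16.2 CPM in pax2a-high replicates 1, 2 and 3, and had 0 counts in all 3 pax2a-low libraries. Its mean of 12.05 ± 8.43 CPM was at least 30.1-fold higher than the limit of 3 counts per pax2a-low library, or at least 15.1-fold if both mates of a pair were counted and the limit is 6 counts, yet it missed the threshold (edgeR adjusted p = 0.190), whereas DESeq2 called it (adjusted p = 0.0052). Both fold bounds cover counting error only, not the spread between libraries. The b copy, slc2a1b, was at 97.8, 29.8 and 27.4 CPM in the pax2a-high libraries, against 375, 206 and 62.4 CPM in the pax2a-low ones. The groups of slc2a1b overlapped because pax2a-high replicate 1 lay above pax2a-low replicate 3, and the change of -2.05 on the log2 scale (SE 0.76) missed the threshold (edgeR adjusted p = 0.194). Leaving out pax2a-low replicate 3 gave -2.55 (edgeR adjusted p = 0.030), and leaving out pax2a-low replicate 1 gave -1.34 (0.447). Leaving out any other library kept it short of the threshold (edgeR adjusted p of 0.203 to 0.368). Within each library, slc2a1a supplied 2.35, 37.2 and 37.2% of the reads of this pair in the pax2a-high libraries, against 0% in all pax2a-low libraries.

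Hexokinase traps glucose in the cell as glucose 6-phosphate, and its genes gave no separation of the groups. The ubiquitous form hk1 was at 105, 124 and 104 CPM in the pax2a-high libraries, against 303, 90.0 and 48.5 CPM in the pax2a-low ones. The insulin-responsive form of mammals, hk2, was at 39.1, 36.3 and 26.0 CPM in the pax2a-high libraries, against 13.7, 179 and 44.4 CPM in the pax2a-low ones. For both, the pax2a-high libraries lay close together and inside the wide range of the pax2a-low ones. The isomerase gene gpia, whose product turns glucose 6-phosphate into fructose 6-phosphate, was at 29.8, 36.5 and 24.3 CPM in the pax2a-high libraries, against 0, 31.2 and 5.84 CPM in the pax2a-low ones (edgeR adjusted p = 0.904), and its copy gpib had no counts in any library.

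Phosphofructokinase commits sugar to glycolysis, and in vertebrates its subunits come in liver (pfkl), muscle (pfkm) and platelet (pfkp) types. The platelet-type gene pfkpa fell in pax2a-high cells. It was at 2.47, 42.7 and 14.6 CPM in the pax2a-high libraries, against 183, 144 and 358 CPM in the pax2a-low ones, so that the highest pax2a-high library was still well under the lowest pax2a-low one. The log2 fold change was -3.52 (SE 0.89, edgeR adjusted p = 0.048), a level 11.5-fold lower in pax2a-high cells. The call was close to the threshold and was lost by edgeR when pax2a-high replicate 1 (adjusted p = 0.153) was left out, or pax2a-low replicate 1 (0.133), 2 (0.124) or 3 (0.059), with log2 fold changes of -3.81 to -2.97, and under a filter of 5 CPM in 3 libraries (0.091). The second platelet-type gene, pfkpb, was at 9.52, 3.38 and 7.11 CPM in the pax2a-high libraries, against 30.5, 6.28 and 14.05 CPM in the pax2a-low ones, with overlap.

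Neither liver-type gene passed the test. All pax2a-high libraries held pfklb, at 19.3, 5.94 and 4.12 CPM, against 0, 0.880 and 0 CPM in the pax2a-low ones, with a log2 fold change of 5.02 and SE 2.95 (edgeR adjusted p = 0.539). Without pax2a-low replicate 2, the only pax2a-low library with pfklb reads, it came to 10.44 (edgeR adjusted p = 0.210), a size set by the prior count. For pfkla the values were 28.1, 24.8 and 39.02 CPM in the pax2a-high libraries, against 0, 4.78 and 70.9 CPM in the pax2a-low ones, of which the last is the pax2a-low library with the most pax2a. The muscle-type genes were all but absent: pfkmb had no counts, and pfkma had 10, all in pax2a-low replicate 3. Skeletal muscle markers (12 genes) summed to 0.102 to 11.1 CPM in the pax2a-high libraries, against 1.1 to 47.5 CPM in the pax2a-low ones.

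Aldolase cleaves fructose 1,6-bisphosphate into both triose phosphates, and 1 of its genes passed the test. The b copy of the muscle-type aldolase, aldoab, rose in pax2a-high cells. It was at 104, 145 and 102 CPM in the pax2a-high libraries, against 0, 1.01 and 2.53 CPM in the pax2a-low ones, which corresponds to 1684, 2821 and 3575 counts against 0, 8 and 32. Every pax2a-high library was thus far above every pax2a-low one, including the replicate that stood apart. The log2 fold change was 6.58 (SE 1.34, edgeR adjusted p = 0.012), a level 95.5-fold higher. Leaving out pax2a-low replicate 3 gave 7.72 (edgeR adjusted p = 0.00049). Leaving out either pax2a-low replicate 2 (edgeR adjusted p = 0.098) or pax2a-high replicate 1 (0.068) ended the call, as did limma (adjusted p = 0.059). When all libraries were thinned to 1 depth, that of the shallowest, aldoab still had 565, 914 and 624 counts across the pax2a-high libraries, against 0, 7 and 20 in the pax2a-low ones.

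The a copy, aldoaa, was at 210, 219 and 210 CPM in the pax2a-high libraries, against 55.5, 111 and 146 CPM in the pax2a-low ones. Its groups did not overlap, and the change of 1.03 on the log2 scale (SE 0.57) missed the threshold (edgeR adjusted p = 0.494). The brain-type aldolase aldocb was lower in every pax2a-high library, with 54.9, 35.8 and 39.1 CPM in pax2a-high against 163, 132 and 232 CPM in the pax2a-low ones. Its change of -2.02 on the log2 scale (SE 0.65) missed edgeR's threshold (adjusted p = 0.132) and did pass with DESeq2 (adjusted p = 0.018) and limma (adjusted p = 0.035). The related gene aldoca had reads in too few libraries to test, with 181, 58 and 0 counts in the pax2a-high libraries, against 0 in all pax2a-low libraries. Neuronal markers (6 genes) summed to 30.3 to 91.3 CPM in the pax2a-high libraries, against 0 to 7.04 CPM in the pax2a-low ones, most of it syt1a.

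**Figure D3:**
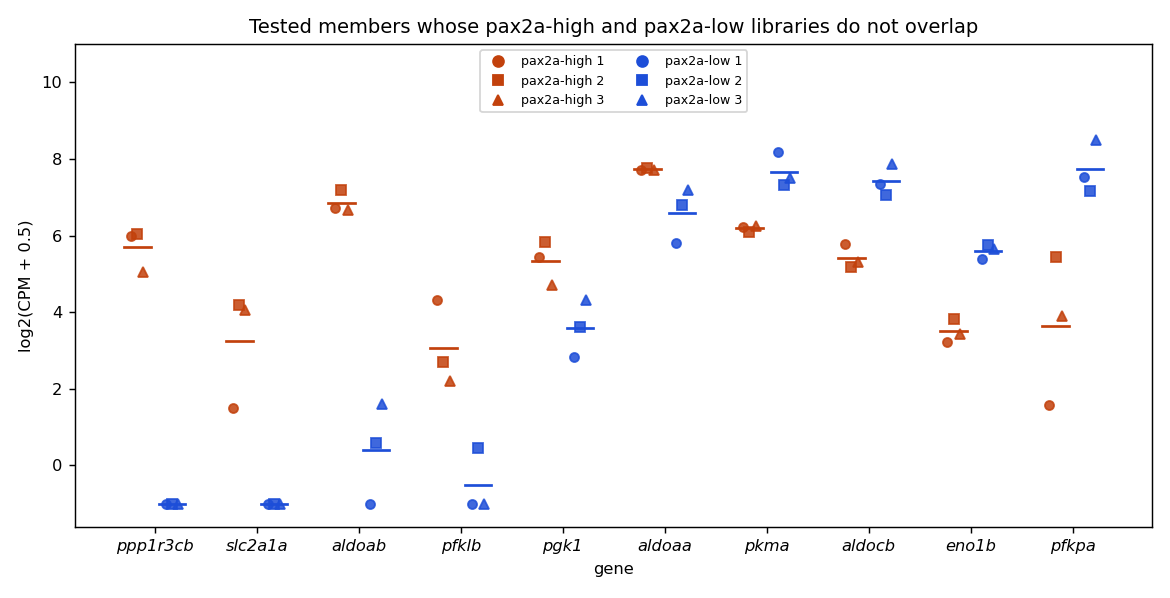
Level of the 10 tested genes whose libraries do not overlap between the groups, as log2(CPM + 0.5) in each library with bars at the group means of the log values. Values at -1 are counts of 0. From left to right, 6 genes lie higher and 4 lie lower in pax2a-high cells, and aldoab and ppp1r3cb show the widest gaps among genes past the threshold.

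None of the tested genes of the triose stage passed the test. Triosephosphate isomerase tpi1b, which interconverts both trioses, was at 105, 125 and 56.6 CPM in the pax2a-high libraries, against 145, 16.7 and 60.1 CPM in the pax2a-low ones, with overlap. Its copy tpi1a had 0, 26 and 34 counts across the pax2a-high libraries, against 0 in all pax2a-low libraries. The dehydrogenase reads came almost entirely from gapdhs, a gene named after the sperm form of mammals, at 346, 200 and 165 CPM in the pax2a-high libraries, against 205, 178 and 75.2 CPM in the pax2a-low ones (log2 fold change 0.64 with SE 0.57, edgeR adjusted p = 0.782). The gene named gapdh had 216, 0 and 54 counts across the pax2a-high libraries, against 0 in all pax2a-low libraries, with reads in too few libraries to test.

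No tested ATP-yielding kinase gene passed the test. Phosphoglycerate kinase pgk1 was at 42.9, 56.8 and 25.9 CPM in the pax2a-high libraries, against 6.64, 11.8 and 19.6 CPM in the pax2a-low ones, without overlap. Its change of 1.72 on the log2 scale (SE 1.44) missed the threshold (edgeR adjusted p = 0.757). Pyruvate kinase pkma, the last step before pyruvate, was at 74.9, 68.2 and 75.1 CPM in pax2a-high against 290, 158 and 179 CPM in the pax2a-low ones. The pax2a-high libraries lay within a narrow band, all under the pax2a-low ones, and the change of -1.52 on the log2 scale (SE 0.58) did not pass (edgeR adjusted p = 0.203). The copy pkmb was sparse, at 9.90, 0 and 3.44 CPM in the pax2a-high libraries, against 0, 0 and 1.89 CPM in the pax2a-low ones.

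Between these kinases, phosphoglycerate mutase and enolase move the phosphate and remove water. The enolase copy eno1b was at 8.91, 13.6 and 10.4 CPM in the pax2a-high libraries, against 41.2, 53.4 and 50.0 CPM in the pax2a-low ones, which separated the groups with little spread in either. Even so, its change of -2.14 on the log2 scale (SE 1.36) missed edgeR's threshold (adjusted p = 0.602), while DESeq2 called it (adjusted p = 0.040). The muscle-type enolase of mammals, eno3, was at 87.8, 80.3 and 52.7 CPM in the pax2a-high libraries, against 22.3, 135 and 103 CPM in the pax2a-low ones. The other copy, eno1a, ranged over 11.6 to 35.9 CPM in the pax2a-high libraries, against 0.158 to 43.7 CPM in the pax2a-low ones, so neither separated the groups. Neuronal enolase eno2 had 21 counts in pax2a-high, all in replicate 3, and 24 in pax2a-low, all in replicate 2. Of the mutases, pgam1a was at 19.2, 12.4 and 14.3 CPM in the pax2a-high libraries, against 2.73, 31.7 and 21.3 CPM in the pax2a-low ones, pgam1b was at 34.9, 11.3 and 22.5 CPM against 0.586, 13.8 and 0.631 CPM, and the muscle form pgam2 had no counts.

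Lactate dehydrogenase links pyruvate to lactate, with the A subunit known in mammals for the forward and the B subunit for the reverse reaction. The A gene ldha was at 41.6, 106 and 65.3 CPM in the pax2a-high libraries, against 21.5, 48.0 and 0 CPM in the pax2a-low ones (log2 fold change 1.62 with SE 1.46, edgeR adjusted p = 0.786). The B gene ldhba was at 52.3, 60.8 and 69.8 CPM in the pax2a-high libraries, against 91.4, 41.7 and 75.3 CPM in the pax2a-low ones (edgeR adjusted p = 0.981). Overlap was present for both, and pax2a-low replicate 3 was the library with no ldha reads.

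Among the 7 glycogen genes, the targeting subunit gene ppp1r3cb rose in pax2a-high cells. It encodes a protein phosphatase 1 subunit that binds glycogen, and it was at 63.2, 64.9 and 32.7 CPM in pax2a-high with 0 counts in all 3 pax2a-low libraries. With 1022, 1267 and 1151 counts in pax2a-high, the mean of 53.6 ± 18.1 CPM (SD, n = 3) was at least 134-fold higher than the limit of 3 counts per pax2a-low library (edgeR adjusted p = 0.018), or at least 67.0-fold if both mates of a pair were counted and the limit is 6 counts. Thinned to the shallowest total, the pax2a-high libraries still held 366, 358 and 180 counts. The call held without pax2a-low replicate 3 (edgeR adjusted p = 0.0057) and was lost without pax2a-high replicate 1 (0.152) or 2 (0.055). Its copy ppp1r3ca was at 3.22, 17.9 and 13.4 CPM in the pax2a-high libraries, against 0, 22.1 and 0 CPM in the pax2a-low ones, so it did not separate the groups.

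The enzymes of glycogen itself showed no such contrast. Glycogen synthase gys1 was at 0.742, 37.5 and 12.4 CPM in the pax2a-high libraries, against 0, 10.1 and 19.7 CPM in the pax2a-low ones, and the liver form gys2 had 3 counts in all, in pax2a-high replicate 2. The brain-type phosphorylase pygb was at 10.51, 17.4 and 46.4 CPM in the pax2a-high libraries, against 0, 45.0 and 21.2 CPM in the pax2a-low ones (edgeR adjusted p = 0.993). Liver-type pygl had 56 counts, all in pax2a-high replicate 3, and muscle-type pygma had 94 in that library and 2 in pax2a-low replicate 3. The spread within each group was as wide as the gap between them for both tested enzymes.

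The balance between related copies can be read within a library. It does not depend on library scaling where both copies are well above 0, whereas with 1 copy at 0 the scaling and the pseudocount set the ratio. Of 17 pairs, 10 had both genes tested, and each was compared as the log2 ratio of CPM + 0.5. The ratio aldoaa over aldoab was 1.01, 0.60 and 1.04 in the pax2a-high libraries, against 6.81, 6.21 and 5.60 in the pax2a-low ones, a difference of -5.32 in the group means. As a share of reads, aldoaa supplied 66.8, 60.2 and 67.4% of the pair in the pax2a-high libraries, against 100, 99.1 and 98.3% in the pax2a-low ones. The pseudocount enters this difference through aldoab, at 0 counts in pax2a-low replicate 1 and at only 1.01 and 2.53 CPM in replicates 2 and 3. Groups were also apart for slc2a1a over slc2a1b (difference 6.21), eno1a over eno1b (3.04), pgam1a over pgam1b (-2.79) and ppp1r3cb over ppp1r3ca (4.23). The pseudocount sets the size of the slc2a1 difference, since slc2a1a was at 0 in all pax2a-low libraries. For ppp1r3c it sets the separation as well, since both genes were at 0 in pax2a-low replicates 1 and 3. It also enters the pgam1 difference, since pgam1b had only 3 and 8 counts in those libraries. The eno1 difference rested on pax2a-low replicate 3, at a ratio of -6.26 against -0.21 and -0.29 in the other pax2a-low libraries, and was 1.04 without it. For each of these 5 pairs the p of a two-sided exact permutation test was 0.1, which is the lowest possible with 3 libraries per group, and 0.2 after Benjamini-Hochberg adjustment over the 10 pairs. The other 5 pairs overlapped. Reads that map to both copies of a pair could be assigned differently by other settings, so separate values of near-identical copies are uncertain.

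**Figure D4:**
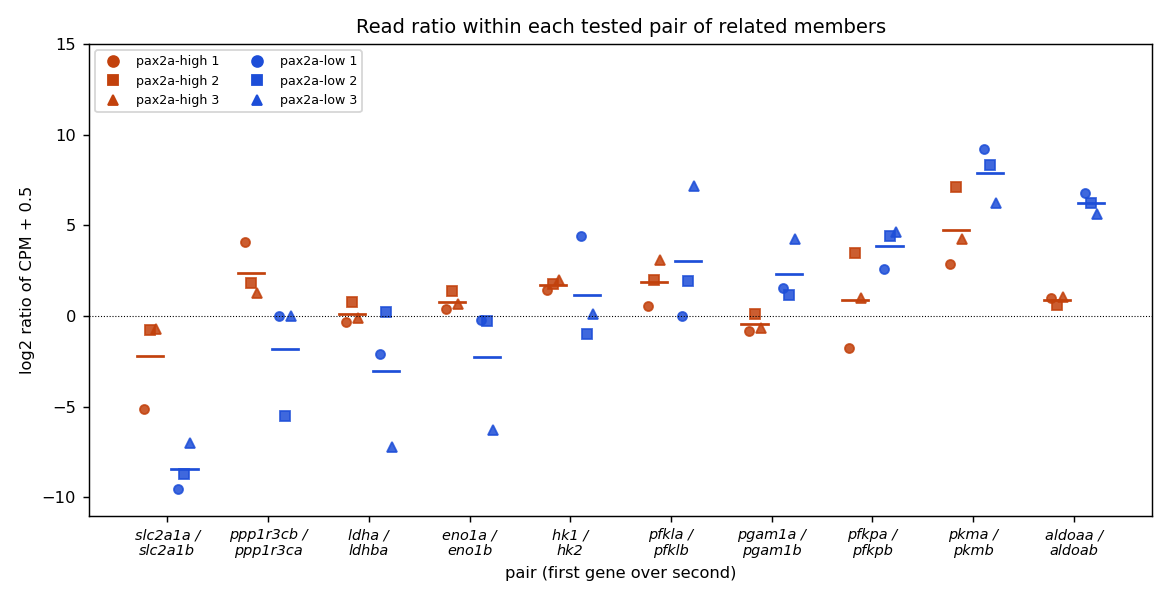
Log2 ratio of the first over the second gene of each tested pair, after adding 0.5 CPM, in each library with bars at the group means. The aldoaa over aldoab ratio lies between 0.60 and 1.04 in the pax2a-high libraries, against 5.60 to 6.81 in the pax2a-low ones, and the 3 points of each group stay close together.

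Detection differed between the groups as well. Of the 39 genes, 9, 9 and 6 had 0 counts in pax2a-high replicates 1, 2 and 3, against 21, 13 and 14 in the pax2a-low ones. Thinned to equal totals, these numbers were 9, 9 and 6 in the pax2a-high libraries, against 21, 13 and 15 in the pax2a-low ones, where only the totals were matched. With tg and the mitochondrial rows removed before thinning, so that all libraries had equal counts over the remaining genes, they were 9, 10 and 6 in the pax2a-high libraries, against 21, 13 and 14 in the pax2a-low ones. Over all genes, thinning to equal totals left 11644, 15462 and 18224 detected in the pax2a-high libraries, against 8392, 14182 and 10969 in the pax2a-low ones.

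Neighbouring pathways were read from 7 lists of 142 names, of which 127 were found and 73 tested. Among these, 1 gene rose and 2 fell in pax2a-high cells, or 1.37% and 2.74% of those tested, against the 1.12% and 1.46% of all genes, and all of them were regulators. The coactivator ppargc1a, which promotes mitochondrial biogenesis and gluconeogenesis, had 0, 6 and 0 counts across the pax2a-high libraries, against 2155, 2435 and 2560 in the pax2a-low ones (log2 fold change -11.52 with SE 1.48, edgeR adjusted p = 0.00091). The hypoxia-inducible factor gene epas1b was at 11.04 ± 3.92 CPM in the pax2a-high libraries, against 124 ± 28.7 CPM in pax2a-low cells (mean ± SD, n = 3 each; edgeR adjusted p = 0.043). In contrast, mycb, a gene of the Myc family of growth regulators, was at 884 ± 151 CPM in the pax2a-high libraries, against 117 ± 26.2 CPM in pax2a-low cells (log2 fold change 2.91 with SE 0.44, edgeR adjusted p = 0.0011). The calls on ppargc1a and mycb held when any 1 library was left out, while that on epas1b was lost when pax2a-high replicate 1 (edgeR adjusted p = 0.171), 2 (0.069) or 3 (0.121) or pax2a-low replicate 2 (0.123) was left out.

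Of the pentose phosphate pathway, which branches from glucose 6-phosphate and makes NADPH, 6 of 9 genes were tested and 0 passed edgeR's adjusted test. At an unadjusted p under 0.05, 2 of the 6 were higher, where 9.76% of all genes tested were. By DESeq2 2 passed, where 6.57% of all genes tested were higher, and by limma 0 did, where 1.09% were. Among them was pgd, which encodes a dehydrogenase of the pathway, at 74.6 ± 17.2 CPM in the pax2a-high libraries, against 11.4 ± 7.95 CPM in pax2a-low cells (mean ± SD, n = 3 each; edgeR adjusted p = 0.264). All 6 had positive log2 fold changes, as 57.1% of all genes tested did, with a median of 2.59 against 0.35, and 4 of them lay higher without overlap, as 21.4% of all genes did. Some of the 6 had few reads in pax2a-low, such as rpia with 0, 68 and 0 counts there, and could pass the filter through the pax2a-high libraries alone.

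In the other lists 0 of 49 tested genes passed edgeR's adjusted test, and 2 were higher and 3 lower at an unadjusted p under 0.05, against 9.76% and 4.6% of all genes. After adjustment 3 were lower by DESeq2 and 3 by limma, where 4.1% and 2.47% of all genes were. Pyruvate dehydrogenase kinase pdk4, which shuts pyruvate out of the citrate cycle, was at 19.0 ± 11.3 CPM in the pax2a-high libraries, against 146 ± 60.5 CPM in pax2a-low cells (edgeR adjusted p = 0.080), and the phosphatase gene pdp2, which reverses it, had 13, 46 and 56 counts across the pax2a-high libraries, against 0 in all pax2a-low libraries (edgeR adjusted p = 0.261). The phosphorylase kinase subunit gene phka2, part of the complex that activates glycogen phosphorylase, was at 26.4 ± 12.4 CPM in the pax2a-high libraries, against 177 ± 64.8 CPM in pax2a-low cells (edgeR adjusted p = 0.054). Of 16 alternative fits, phka2 passed the threshold in 11 and pdk4 in 6. A catalytic subunit gene, phkg1b, had 0, 0 and 60 counts across the pax2a-high libraries, against 447, 182 and 0 in the pax2a-low ones. The gene tigarb, whose mammalian product lowers glycolytic flux, had 116, 22 and 216 counts across the pax2a-high libraries, against 0 in all pax2a-low libraries (edgeR adjusted p = 0.211). Log2 fold changes were -1.76 for the mitochondrial pyruvate carrier gene mpc1, -2.06 for the glucose transporter gene slc2a12, -3.24 for the glucose 6-phosphatase gene g6pc3 and -1.65 for the carboxykinase gene pck2, each with a wide error (edgeR adjusted p of 0.746, 0.837, 0.80 and 0.919). The g6pc3 value rested on 1 library, with 0, 48 and 45 counts in the pax2a-high libraries, against 182, 0 and 0 in the pax2a-low ones, and its direction turned to 7.52 with that library left out.

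**Figure D5:**
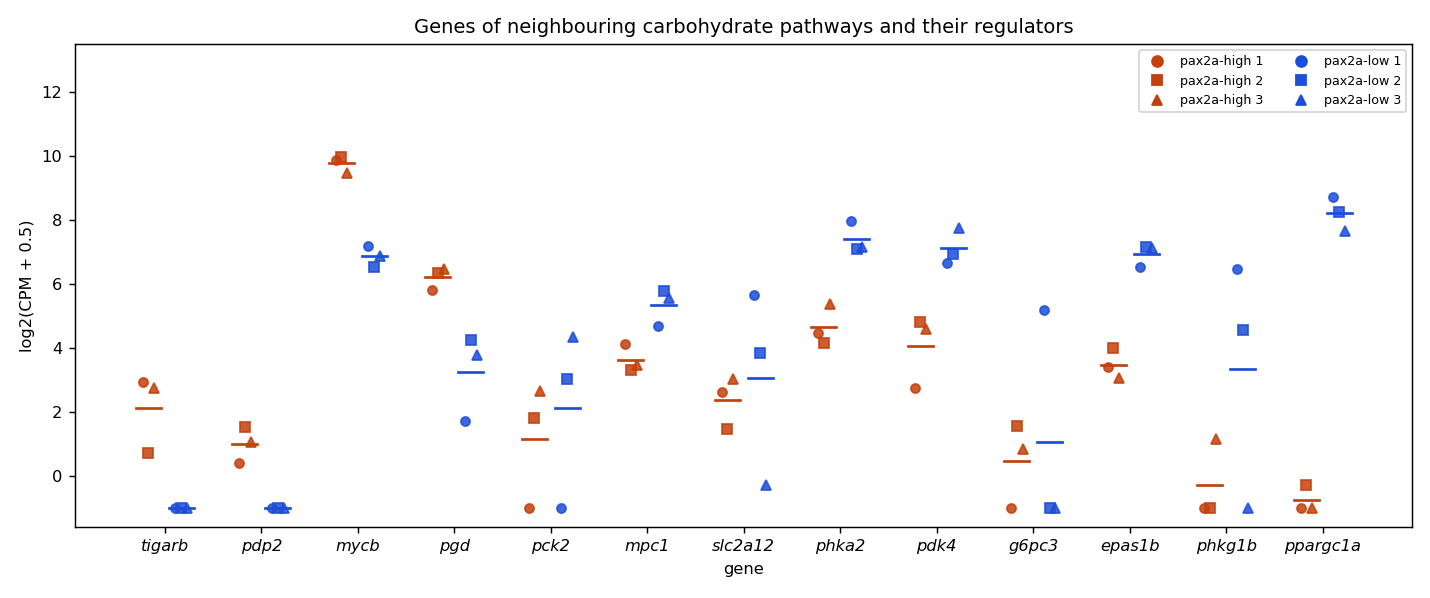
Level of genes of neighbouring pathways and regulators, as log2(CPM + 0.5) in each library with bars at the group means of the log values; values at -1 are counts of 0. The regulators mycb (higher in pax2a-high) and epas1b and ppargc1a (lower in pax2a-high) passed edgeR's adjusted test, and pgd lies higher in all pax2a-high libraries without passing it.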

How the data were processed

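The authors deposited raw counts per gene for 6 libraries. The submitters' processing notes name HISAT2, featureCounts and the GRCz11 build. Their versions, the strand setting and the handling of reads with several matches are not given in the sources used here. Even values made up 67.8 to 89.0% of the nonzero counts of a library, a pattern that counting each mate would give, which was not tested; limits cover counting error only.

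Groups came from the sample titles. The deposited counts were analysed in R 4.3.3 with edgeR 4.0.16 (expression filter filterByExpr, TMM scaling, robust quasi-likelihood fit on the group alone, Benjamini-Hochberg over all genes tested, threshold 0.05). Standard errors were taken from the quasi-likelihood statistic, with a common biological coefficient of variation of 1.50. Bounds set the pax2a-high mean CPM against 3 counts per pax2a-low library, averaged over the group, and leave out the spread between libraries. Names were matched to the table, and a name with several rows took the row with the most counts. Alternatives were other scalings and filters, DESeq2 1.42.0, limma 3.58.1, a replicate block, thinning, halved counts, thinning with tg and the mitochondrial rows removed (chosen after seeing the data, as was the limit of 6 counts) and leaving out each library. The scripts were tested on simulated data with less spread between libraries than here, so that test does not cover calls at the spread of these data.

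The 39 genes and all other lists were chosen with earlier results of these data known. Library values are given for genes that passed, genes whose groups did not overlap and the gene with the highest mean CPM of each step, and of the neighbouring lists for genes that passed and the 2 with the smallest p. Some genes that this rule takes from the neighbouring lists are not reported here.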

Additional observations from a re-analysis of the deposited data

How the results depend on the processing

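Across 16 alternative fits, 18 of the 28 tested genes kept their direction in every fit that tested them. The count of genes that rose in pax2a-high cells (2) was 3 with DESeq2, where 6.57% of all genes tested rose. It was 1 with limma, where 1.09% of all genes tested rose, and 0 to 2 when any 1 library was left out. The count that fell (1) was 0 with a filter of 5 CPM in 3 libraries and 0 to 1 when any 1 library was left out. It was 3 with DESeq2 and 2 with limma, where 4.1% and 2.47% of all genes tested fell. Without pax2a-high replicate 1 both counts were 0 by edgeR, where the whole table gave 40 genes higher and 120 lower of 14914 tested. In the neighbouring lists, the 1 gene higher became 4 with DESeq2, where 6.57% of all genes tested were higher, and 1 to 2 with a library left out. The 2 lower became 4 with no count filter, 5 with DESeq2, 5 with limma and 1 to 3 with a library left out. Over all genes, 299 of 23396 were lower with no count filter, 4.1% with DESeq2 and 2.47% with limma. The causes were not tested.

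Directions turned for genes far from the threshold. With limma, log2 fold changes were 0.35 for hk1, 1.70 for eno1a, 0.058 for ldhba and 1.54 for g6pc3. With a library left out they ranged from -0.90 to 0.72 for hk1, -1.68 to 0.18 for hk2, -0.29 to 3.64 for pfkla, -0.14 to 1.33 for tpi1b, -0.76 to 0.30 for pgam1a, -0.96 to 0.23 for eno1a, -0.66 to 0.19 for eno3, -0.49 to 0.085 for ldhba, -0.56 to 1.70 for gys1, -0.66 to 1.17 for pygb and -4.15 to 7.52 for g6pc3. The ratio difference ranged from -0.56 to 2.15 for hk1 over hk2 and from -2.68 to 0.90 for pfkla over pfklb.

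Same-numbered libraries correlated at 0.034 to 0.071 in their deviations from the group means, and differently numbered ones at -0.038 to -0.0082. Each correlated best with its own number, a weak hint from the data and not the design. Deviations sum to 0 within a group, so positive values for same numbers go with negative values for the others. The column names call same-numbered libraries a set. What a set marks is not given, so whether the libraries are paired cannot be told. With the replicate block, log2 fold changes were 0.041 for hk1, 0.15 for pgam1a, 0.64 for eno1a, 0.018 for eno3 and 4.69 for g6pc3. Under it 2 of the 28 genes were called higher and 1 lower, the epas1b call was lost (adjusted p = 0.052), and over all genes 425 were higher and 263 lower, against 140 and 183 without it. DESeq2 size factors shifted log2 fold changes by a median of -0.10 and turned no direction among the 28 genes. The shifts were larger with limma (0.66) and the replicate block (0.61), where 19 and 20 of the 28 genes were positive, against 16 in the main fit. Leaving out pax2a-low replicate 1 shifted log2 fold changes by a median of -0.45. Thinned to equal totals, the counts of genes that rose and fell were 2 and 1, as they were with halved counts and with tg and the mitochondrial rows removed before thinning. That last setting, chosen after seeing the data, shifted log2 fold changes by a median of -0.18. It gave 4 lower genes in the neighbouring lists, and 206 of 10664 over all genes.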
